A study of Mus musculus with 6 samples.

Results

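The genes described here encode enzymes that modify collagen chains inside the cell or crosslink collagen and elastin outside it. The crosslinking enzymes are the lysyl oxidases *Lox*, *Loxl1*, *Loxl2*, *Loxl3* and *Loxl4*. Those acting inside the cell are the lysyl hydroxylases *Plod1*, *Plod2* and *Plod3*, and the prolyl 4-hydroxylase alpha subunits *P4ha1* and *P4ha2*. They were taken from a list of names, drawn up with earlier results of these data known, as 10 of the 55401 genes listed in the count table, and all 10 were among the 22318 genes tested for a difference between genotypes. Expression was measured by poly(A)-selected bulk RNA-seq in primary Schwann cells (SCs), the glia of peripheral nerves. The 3 *Plxnb1-/-* cultures were compared with 3 WT cultures, and the comparison asks which transcripts differ in SCs that lack Plexin-B1, a receptor for semaphorins.

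All cultures came from adult dorsal root ganglia of mice on a C57BL/6 background. The *Plxnb1-/-* mice carry a gene trap in every cell (*Plxnb1* tm1Matl, a transmembrane-lacZ-neo cassette), so the disruption is not restricted to SCs. The controls are labelled WT. In general the study used heterozygous littermates as controls as well. Both genotypes were kept in the same SC medium with forskolin, neuregulin, serum and ascorbic acid, were depleted of fibroblasts with an antibody against Thy1, and were passaged before use, so they are enriched for SCs rather than pure. The labels number the replicates of a genotype but do not say whether each came from a separate animal, so p-values measure the spread between these samples, which may be partly technical.

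Collagen chains are modified in the endoplasmic reticulum before they are secreted. Prolyl 4-hydroxylases make the hydroxyproline that holds the triple helix together, and lysyl hydroxylases make the hydroxylysine from which sugars and strong crosslinks are formed; both need iron, oxygen, 2-oxoglutarate and ascorbate. Outside the cell the lysyl oxidases, which are copper amine oxidases, turn lysine and hydroxylysine side chains into aldehydes that join neighboring collagen and elastin molecules. In nerves these enzymes act on the basal lamina and connective tissue around SCs and axons.

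*Plxnb1* itself was checked first, in CPM, its counts per 1000000 counts of the library. After TMM scaling WT replicates 1, 2 and 3 held 61.8, 45.4 and 96.4 CPM. It was 13.1, 16.6 and 18.6 CPM in the *Plxnb1-/-* cultures, so every mutant culture lay below every WT culture. The mean of the mutants was 23.7% of the WT mean (log2 fold change -2.08, SE 0.25, adjusted p = 0.045 in edgeR's quasi-likelihood test). The libraries summed to between 59252048 and 77280964 counts, where 3 counts amount to 0.0388 to 0.0506 CPM, a floor that covers counting error only. All 8 SC markers were detected, with *Sox10* at 486.2 ± 47.8 CPM in WT and 550.2 ± 38.5 in the mutant (SD, n = 3), although *S100b* stood at only 7.56 ± 0.589 and 7.65 ± 0.0559 CPM. Across all tested genes edgeR called 8 genes, where a call needs both an adjusted p under 0.05 and a log2 fold change larger than 0.25 in size, and DESeq2 called 335.

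All 10 enzyme genes were expressed in every culture. *Lox*, *Loxl1*, *Loxl2* and *Plod2* were lower in all 3 *Plxnb1-/-* cultures than in any WT culture, with mutant means between 74.7% and 83.9% of WT. The mutant range of *Loxl3*, *Loxl4*, *Plod1*, *Plod3*, *P4ha1* and *P4ha2* overlapped that of WT. None of the 10 passed edgeR's quasi-likelihood test after adjustment over all tested genes, beside 0.0314% of all tested genes called lower and 0.00448% called higher. DESeq2 called *Lox* and *Loxl2* lower and none higher, beside 0.811% of all tested genes called lower and 0.69% called higher.

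Before adjustment, edgeR gave 5 of the 10 genes a p below 0.05, all of them lower (*Lox*, *Loxl1*, *Loxl2*, *Plod2* and *P4ha2*), beside 6.78% of all tested genes with such a p and lower and 6.95% with such a p and higher. Lower values without overlap were found for 4 of the 10, against 10.4% of all tested genes, and higher values without overlap for 0 of the 10, against 9.3%. By the sign of the log2 fold change alone, 8 were lower and 2 higher, with a median of -0.18. All tested genes had a median of 0.005, with 10827 lower and 11491 higher.

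**Figure D1:**
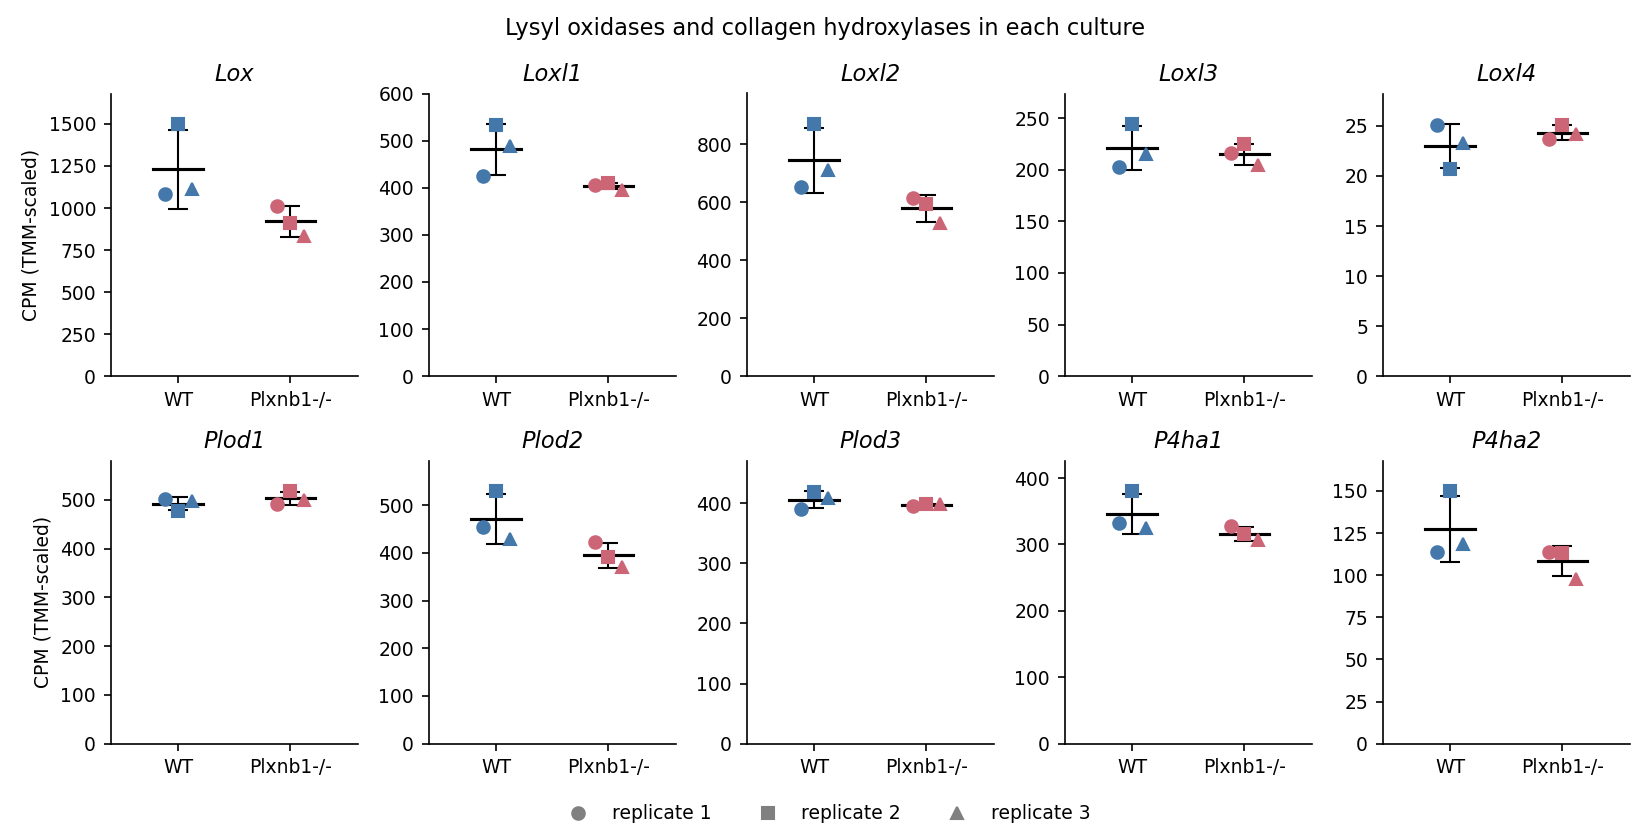
Each panel plots 1 enzyme gene in CPM after TMM scaling, on a linear axis from 0, with a point per culture (shape gives the replicate), a horizontal bar at the mean and an error bar of 1 SD, n = 3 per genotype. *Lox*, *Loxl1*, *Loxl2* and *Plod2* show 3 mutant points below all WT points, and WT replicate 2 (square) is the highest point in 8 of the 10 panels.

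Per kilobase of exon, *Lox* was the most abundant of the 10 in both genotypes, at 257.7 ± 49.1 RPKM (CPM divided by the exon length in kilobases) in WT and 192.5 ± 19.0 in *Plxnb1-/-* cultures (SD, n = 3). *Loxl1* and *Loxl2* followed at 146.1 ± 16.4 and 137.7 ± 20.9 RPKM in WT, a gap smaller than their spread. *Plod3*, *Plod2* and *P4ha1* came next at 89.7 ± 3.15, 87.3 ± 9.66 and 84.0 ± 7.32 RPKM, and these 3 also did not differ beyond their spread. *Plod1* stood at 72.7 ± 2.03 and *Loxl3* at 48.0 ± 4.64 RPKM. The lowest levels were those of *P4ha2* at 20.4 ± 3.14 and *Loxl4* at 5.47 ± 0.521 RPKM.

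The order in the mutant was the same at both ends. There *P4ha1*, *Plod1* and *Plod2* lay at 76.9 ± 2.53, 74.4 ± 1.94 and 73.2 ± 4.99 RPKM, so *Plod2* moved from rank 5 to rank 7 among genes whose values lie close together. These levels depend on the length used. Divided by the longest transcript instead of all merged exons, *Plod2* reached 128.5, *Plod3* 123.6 and *Plod1* 120.1 RPKM in WT, close to *Loxl2* at 140.0. With that length in the mutant, *Plod1* at 122.8, *Loxl1* at 122.5 and *Plod3* at 121.2 RPKM lay close together, above *Loxl2* at 108.8. *Lox* ranked first and *Loxl4* last with either length.

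*Lox*, the founding member of its family, crosslinks fibrillar collagen and elastin. Its gene (ENSMUSG00000024529) lies on the minus strand of chromosome 18 from 52516067 to 52529867 in GRCm38. The WT replicates 1, 2 and 3 reached 1081, 1501 and 1111 CPM, and the *Plxnb1-/-* cultures reached 1015, 910.9 and 834.3 CPM. The mutant cultures were all lower, but *Plxnb1-/-* replicate 1 lay close to WT replicates 1 and 3, and WT replicate 2 stood well above the other 5 cultures. The mutant mean was 74.7% of WT (920.0 ± 90.6 against 1231 ± 234.4 CPM, SD, n = 3). The log2 fold change was -0.42 with a 95% interval of -0.70 to -0.14. DESeq2 called it (adjusted p = 0.0243), and edgeR did not (adjusted p = 0.276). It came to -0.25 in both tools once WT replicate 2 was left out, and DESeq2 no longer called it.

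*Loxl2*, which crosslinks the collagen IV of basement membranes as well as fibrillar collagen, ordered the 6 cultures exactly as *Lox* did. It lies on the plus strand of chromosome 14 from 69609068 to 69695834 (ENSMUSG00000034205). The WT cultures held 651.8, 870.3 and 710.0 CPM, and the mutant cultures held 613.7, 595.0 and 526.5 CPM. Again no mutant culture reached the WT range, and WT replicate 2 and *Plxnb1-/-* replicate 3 formed the extremes. The mean was 77.7% of WT, a log2 fold change of -0.36 (95% interval -0.59 to -0.13, adjusted p = 0.273 in edgeR and 0.026 in DESeq2). With WT replicate 2 left out it was -0.23 in edgeR and -0.24 in DESeq2, and neither tool called it.

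*Loxl1*, known for its part in elastic fiber assembly, lies on the minus strand of chromosome 9 from 58287738 to 58313186, which is 50.78 Mb from *Plxnb1* on the same chromosome. It measured 424.8, 532.5 and 487.7 CPM in WT and 406.3, 409.5 and 396.1 CPM in the mutant. The mutant cultures were close to each other, with an SD of 6.98 CPM against 54.1 CPM in WT, and all were below WT. The log2 fold change was -0.25 (95% interval -0.42 to -0.09), which neither edgeR (adjusted p = 0.275) nor DESeq2 (adjusted p = 0.0592) called. When WT replicate 1, the lowest WT culture, was left out, it was -0.33 in edgeR and -0.34 in DESeq2, and DESeq2 then called it (adjusted p = 3.02e-05). When WT replicate 2, the highest, was left out, it was -0.17 in edgeR (adjusted p = 0.45) and -0.18 in DESeq2 (adjusted p = 0.205), with no call.

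The other 2 lysyl oxidases showed overlapping genotypes. *Loxl3*, needed for normal formation of the palate and spine, lies on the plus strand of chromosome 6 from 83034173 to 83052562. It held 203.0, 244.6 and 215.3 CPM in WT and 215.9, 224.9 and 204.4 CPM in the mutant, with every mutant culture inside the WT range. Its log2 fold change was -0.04 (95% interval -0.20 to 0.12), and without WT replicate 2 the sign turned to 0.04 in both tools. *Loxl4*, another close relative, on the minus strand of chromosome 19 from 42593982 to 42612813, held 25.1, 20.7 and 23.3 CPM in WT and 23.7, 25.1 and 24.2 CPM in the mutant. Here WT replicate 2 was the lowest culture, and the log2 fold change of 0.08 had a 95% interval of -0.08 to 0.24. In edgeR it was 0.013 without WT replicate 2 and 0.15 without WT replicate 1.

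Among the lysyl hydroxylases the lowest mutant value relative to WT was that of *Plod2*, whose enzyme hydroxylates the telopeptides, the ends of collagen chains from which crosslinks start. It lies on the plus strand of chromosome 9 from 92542223 to 92608428, 16.49 Mb from *Plxnb1*. WT replicates 1, 2 and 3 held 453.5, 529.2 and 429.4 CPM, and the *Plxnb1-/-* cultures 423.6, 390.7 and 370.2 CPM. The mutant cultures were all lower, by a narrow margin between *Plxnb1-/-* replicate 1 and WT replicate 3. The mean was 83.9% of WT, and the log2 fold change was -0.25 (95% interval -0.44 to -0.07, adjusted p = 0.29 in edgeR and 0.0893 in DESeq2). No fit with a library left out called it, and the value without WT replicate 2 was -0.16 in both tools.

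*Plod1*, which hydroxylates lysines of the triple helix, held 502.1, 476.4 and 497.6 CPM in WT and 491.9, 517.6 and 500.3 CPM in the mutant. *Plod3*, the member that also adds sugars to hydroxylysine, held 389.7, 417.6 and 408.6 CPM in WT and 395.8, 397.7 and 399.1 CPM in the mutant. Both genes varied little, and their genotypes overlapped. The log2 fold change was 0.03 for *Plod1* (95% interval -0.06 to 0.13) and -0.03 for *Plod3* (95% interval -0.12 to 0.07), so neither interval reaches beyond 0.13 in size. With 1 library left out the edgeR values ran from 0.012 to 0.050 for *Plod1* and from -0.053 to -0.002 for *Plod3*. *Plod1* lies on the minus strand of chromosome 4 from 147909753 to 147936767 and *Plod3* on the plus strand of chromosome 5 from 136987019 to 136996648.

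The alpha subunits of prolyl 4-hydroxylase carry the catalytic site and pair with the product of *P4hb*. *P4ha1*, the main form in most tissues, lies on the plus strand of chromosome 10 from 59323296 to 59373304, and *P4ha2* on the plus strand of chromosome 11 from 54100095 to 54131665. Both are textbook targets of hypoxia-inducible factor (HIF), and their promoters are shown because a list of HIF targets was measured beside them. The sequences are the 250 bases before the RefSeq start in GRCm38.p6, plus strand, at chr10:59323046-59323295 and chr11:54100674-54100923. The *P4ha2* window lies inside the gene coordinates given above, whose start is upstream of the RefSeq start used here. Capitals mark the HIF core, ACGTG or GCGTG, on either strand.
P4ha1: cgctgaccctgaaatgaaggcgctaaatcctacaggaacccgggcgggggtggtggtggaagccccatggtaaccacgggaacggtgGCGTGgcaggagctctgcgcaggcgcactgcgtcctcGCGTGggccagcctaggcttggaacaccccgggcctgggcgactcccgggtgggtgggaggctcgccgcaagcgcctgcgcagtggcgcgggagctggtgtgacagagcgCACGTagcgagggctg
P4ha2: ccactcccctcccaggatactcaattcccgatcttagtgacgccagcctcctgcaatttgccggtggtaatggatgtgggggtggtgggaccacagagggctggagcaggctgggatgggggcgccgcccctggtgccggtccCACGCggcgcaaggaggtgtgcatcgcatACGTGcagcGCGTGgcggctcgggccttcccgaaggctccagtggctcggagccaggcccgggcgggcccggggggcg
Each window holds 3 cores. In the first they begin 163, 126 and 16 bases before the start, and in the second 107, 78 and 69 bases before it.

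RefSeq windows of this length were matched for 5 of the 10 genes, *P4ha1*, *P4ha2*, *Plod1*, *Plod3* and *Loxl4*, and all 5 hold at least 1 core, beside 38.6% of all 32851 windows. *Plod3* holds 4 cores and *Plod1* and *Loxl4* 1 each. The AP-1 motif TGANTCA and the TEAD motif GGAATG, searched on both strands, were found in 0 of the 5, beside 6.75% and 12.6% of all windows. The 5 windows are rich in G and C, at 55.6% to 76.0% against a median of 52.4%, and the HIF core holds a CG pair. ACGTG also lies within the E-box CACGTG, and a match describes letters only.

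*P4ha1* held 332.9, 380.1 and 324.1 CPM in WT and 327.1, 315.3 and 306.4 CPM in the mutant. The ranges overlapped through *Plxnb1-/-* replicate 1, which was just above WT replicate 3. *P4ha2* held 113.6, 149.8 and 118.7 CPM in WT and 113.8, 113.2 and 97.9 CPM in the mutant, and its ranges overlapped through WT replicate 1 and *Plxnb1-/-* replicate 1. The log2 fold change was -0.13 for *P4ha1* (95% interval -0.27 to 0.01) and -0.23 for *P4ha2* (95% interval -0.47 to -0.001, adjusted p = 0.363 in edgeR and 0.225 in DESeq2). They came to -0.05 and -0.10 in edgeR without WT replicate 2.

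**Figure D2:**
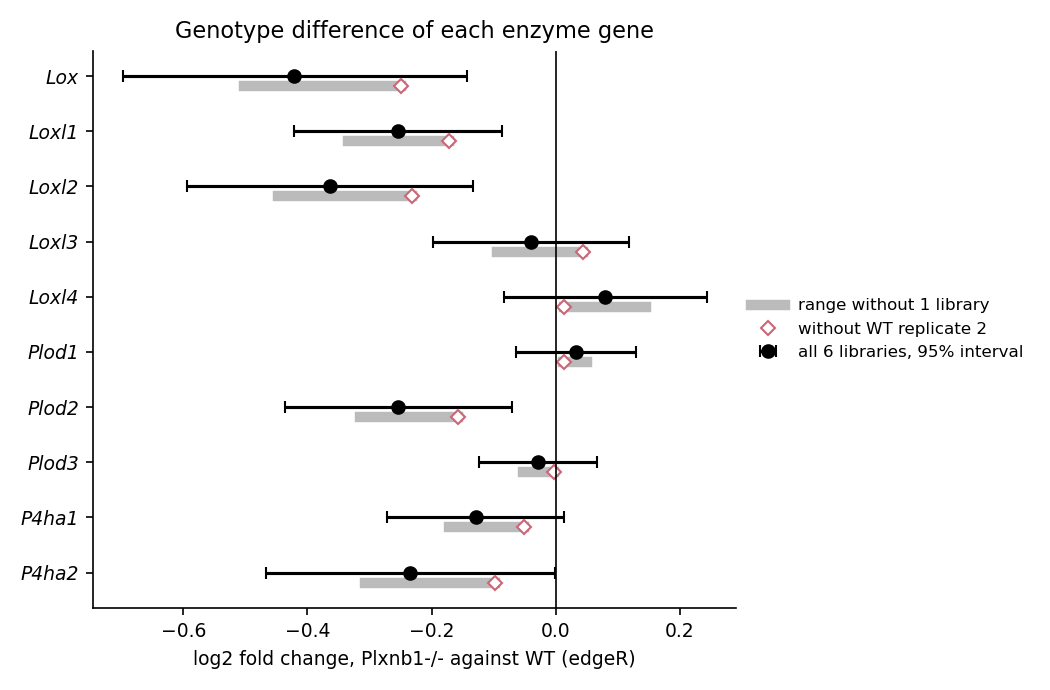
For each enzyme gene the black point and whiskers give the log2 fold change of *Plxnb1-/-* against WT in edgeR with its 95% interval, the gray bar the range when 1 library is left out, and the open diamond the value without WT replicate 2. The intervals of *Lox*, *Loxl1*, *Loxl2*, *Plod2* and *P4ha2* lie below 0, and the diamond of *Loxl3* lies above 0 at 0.04.

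WT replicate 2 was the highest of the 6 cultures for 8 of the 10 genes and the lowest for *Plod1* and *Loxl4*. *Plxnb1-/-* replicate 3 was the lowest for 6 genes, *Lox*, *Loxl1*, *Loxl2*, *Plod2*, *P4ha1* and *P4ha2*. Without WT replicate 2, the median over the 10 genes moved from -0.18 to -0.07, 7 genes were lower and 3 higher, and neither edgeR nor DESeq2 called any of them. For *Lox* the edgeR value ranged from -0.50 without WT replicate 1 to -0.25 without WT replicate 2, and for *Loxl2* from -0.45 to -0.23 in the same fits. Adjusted p ran from 0.129 to 0.683 for *Lox* and from 0.119 to 0.683 for *Loxl2* in those edgeR fits, and from 0.00233 to 0.405 and from 0.000681 to 0.423 in DESeq2. DESeq2 called *Lox* in 3 of the 6 fits with a library left out (without WT replicate 1, WT replicate 3 or *Plxnb1-/-* replicate 1) and *Loxl2* in 2 of them (without WT replicate 1 or *Plxnb1-/-* replicate 1).

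The make-up of each family was then compared by culture. The summed level of the 5 lysyl oxidases per kilobase of exon was 525.8, 694.8 and 564.1 RPKM in WT and 501.7, 479.7 and 442.3 RPKM in the mutant, with no overlap. *Lox* made up 43.2% ± 2.00 of it in WT and 40.5% ± 1.58 in the mutant (SD, n = 3), with overlapping cultures. The share of *Loxl3*, whose own level hardly differed, was 8.39%, 7.65% and 8.29% in WT and 9.35%, 10.2% and 10.0% in the mutant, and these groups did not overlap. *Loxl2* held close to the same share in all cultures, from 22.02% to 23.3%.

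The 3 lysyl hydroxylases took nearly equal parts of their sum, which was 249.7 ± 9.77 RPKM in WT and 235.6 ± 4.14 in the mutant. *Plod2* made up 34.4%, 37.6% and 32.7% in WT and 32.9%, 30.6% and 29.7% in the mutant, overlapping at 1 culture. *Plod1* made up 30.4%, 27.0% and 30.2% in WT and 30.4%, 32.3% and 32.03% in the mutant, where *Plxnb1-/-* replicate 1 lay just above the highest WT culture. *P4ha1* made up 80.5% ± 1.13 of the sum of *P4ha1* and *P4ha2* in WT and 81.6% ± 0.901 in the mutant. That share rests on the merged exon length. Divided by the longest transcript, *P4ha1* and *P4ha2* stood closer together, at 85.5 and 41.6 RPKM in WT and 78.2 and 35.4 in the mutant. Another alpha subunit gene, *P4ha3*, is not part of the sum of *P4ha1* and *P4ha2* and is counted with the collagen folding genes below. It held 51.7 ± 4.01 CPM in WT and 46.7 ± 2.27 in the mutant. Shares of 1 sum are not independent, and no test was run on them.

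**Figure D3:**
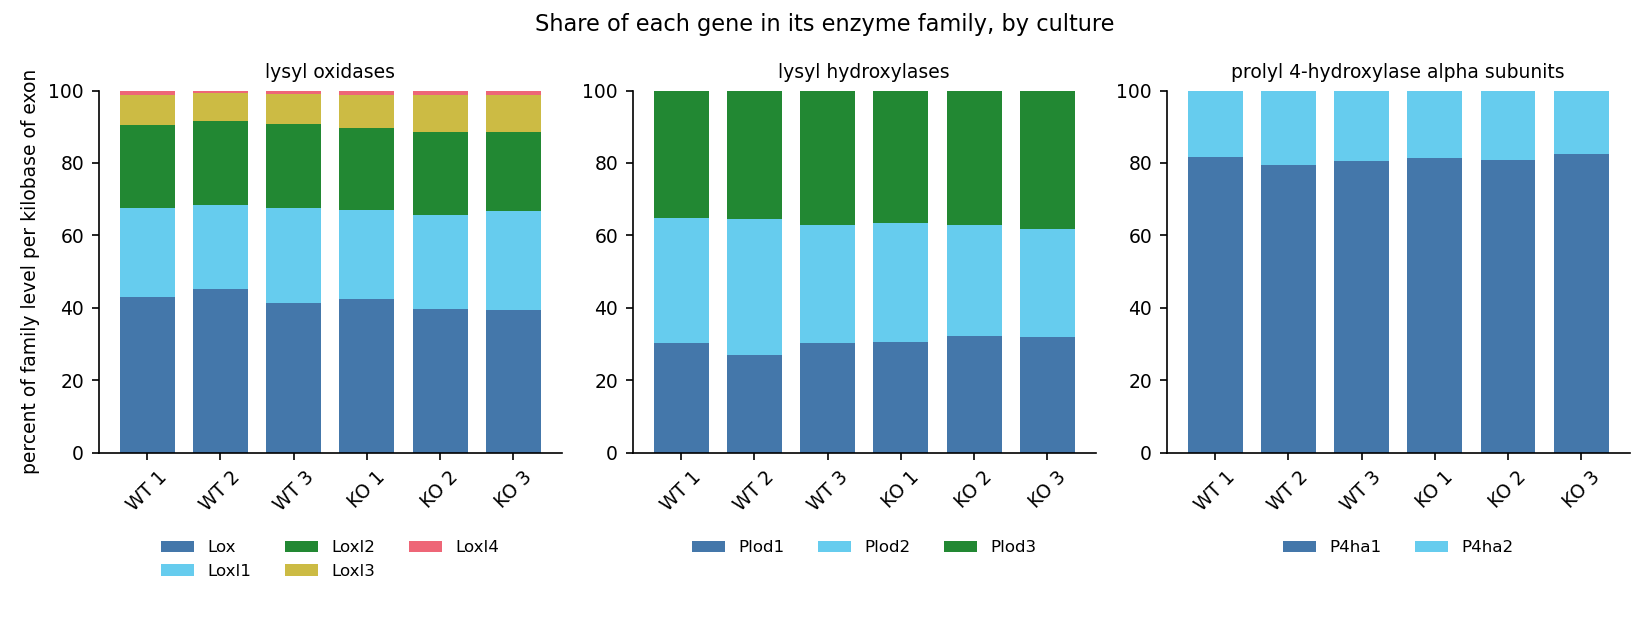
Stacked bars give, for each of the 6 cultures (KO is *Plxnb1-/-*), the percent of the summed level per kilobase of exon that each gene takes in its family. *Lox* takes 39.5% to 45.2% of the lysyl oxidase level, and the 3 *Plod* genes take nearly equal parts. *P4ha1* takes 79.4% to 82.6% of the summed level of *P4ha1* and *P4ha2*, which leaves out *P4ha3*. The length is that of all merged exons, and by the longest transcript *P4ha2* lies closer to *P4ha1*.

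The enzymes work along a path from chain folding to fiber, and 79 further genes of that path and of 2 programs known to drive it were read from the same fit. Of these, 57 were lower and 22 higher in the mutant, and their median log2 fold change was -0.095. edgeR called none of them, with 29 lower and 6 higher at an unadjusted p below 0.05, and DESeq2 called 9 lower and 2 higher. In 30 genes all mutant cultures were below all WT cultures, and in 7 all were above. Over all tested genes the shares without overlap were 10.4% lower and 9.3% higher. At an unadjusted p below 0.05 in edgeR they were 6.78% and 6.95%, and for DESeq2 calls 0.811% and 0.69%. These lists were drawn up with results of these data known, and some of their genes belong to pathways that the study itself picked out from these samples, so their direction is not independent evidence.

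Collagen folding partners inside the cell leaned lower by small amounts. Of 16 genes, 12 were lower and 4 higher with a median of -0.12, and neither edgeR nor DESeq2 called any, although 9 were lower and 1 higher at an unadjusted p below 0.05. At one end stood *Fkbp10*, a prolyl isomerase of collagen (513.7 ± 48.5 CPM in WT, 448.7 ± 18.5 in the mutant, log2 fold change -0.20), and *Serpinh1*, the collagen chaperone (1639 ± 146.9 and 1440 ± 24.3 CPM, -0.19). At the other stood *Tmem38b*, an endoplasmic reticulum ion channel (7.31 ± 0.461 and 8.497 ± 0.710 CPM, 0.22), and *P3h2*, a prolyl 3-hydroxylase (31.8 ± 1.98 and 34.2 ± 1.75 CPM, 0.10). *P4hb*, the partner of *P4ha1* and *P4ha2*, stood at 1332 ± 84.4 CPM in WT and 1203 ± 15.1 in the mutant (-0.15), without overlap. The median of the 16 was -0.076 without WT replicate 2.

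Of 8 procollagen processing genes all 8 had a negative log2 fold change, with a median of -0.17. At an unadjusted p below 0.05 in edgeR 2 were lower and 0 higher, and 3 were lower without overlap. *Tll2*, at 0.131 ± 0.055 CPM in WT and 0.063 ± 0.012 in the mutant, stood near the counting floor, and its cultures overlapped. DESeq2 called *Tll1*, a tolloid protease related to the one that trims procollagen and activates pro-LOX. It held 18.8, 17.6 and 17.1 CPM in WT and 13.3, 11.3 and 11.8 CPM in the mutant, a clear gap (log2 fold change -0.56, SE 0.08, adjusted p = 1.3e-06 in DESeq2 and 0.103 in edgeR). This call held in DESeq2 without WT replicate 2, at -0.57, while the median of the 8 genes came to -0.11. *Bmp1*, the main protease of that kind, stood at 1096 ± 59.4 and 1032 ± 50.6 CPM (-0.09) with overlapping cultures.

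Among 8 genes whose products bind or load lysyl oxidases, 5 were lower and 3 higher with a median of -0.03, and DESeq2 called 1 in each direction. *Fbln5*, which tethers LOXL1 to elastic fibers, was higher, at 220.1 ± 19.4 CPM in WT and 274.4 ± 23.1 in the mutant (log2 fold change 0.32, adjusted p = 0.014 in DESeq2, 0.266 in edgeR). *Fn1*, encoding fibronectin, was lower, at 8377 ± 1172 and 6778 ± 374.5 CPM (-0.31, adjusted p = 0.0452 in DESeq2, 0.284 in edgeR). With WT replicate 2 left out the median was -0.002, and DESeq2 still called *Fbln5* (0.26) but not *Fn1* (-0.19).

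Of 14 genes for substrates of the crosslinking reaction, 12 were lower and 2 higher, with a median of -0.096. DESeq2 called *Eln*, *Col5a3* and *Col1a1* lower and edgeR called none, with 6 lower and 1 higher at an unadjusted p below 0.05. *Eln*, which encodes the elastin precursor, held 333.0, 317.4 and 276.7 CPM in WT and 145.1, 200.1 and 99.5 CPM in the mutant, a wide gap with no overlap (log2 fold change -1.06, SE 0.21, adjusted p = 0.0213 in DESeq2 and 0.235 in edgeR). *Col5a3*, a collagen V chain, stood at 969.7 ± 104.9 and 736.6 ± 79.7 CPM (-0.40, DESeq2 adjusted p = 0.0057). *Col1a1*, the main collagen I chain, stood at 6220 ± 762.7 and 5058 ± 163.8 CPM (-0.30, DESeq2 adjusted p = 0.0258). Of the 14, DESeq2 called only *Col5a3* without WT replicate 2 (-0.305). The value of *Eln* was then -1.04, close to that in all libraries, at an adjusted p of 0.2 in DESeq2, and *Col1a1* was at -0.19 with an adjusted p of 0.00995 in DESeq2, under the fold change needed for a call. *Col2a1*, named because its log2 fold change of 2.53 stood far from the rest, held 0.770 ± 0.169 CPM in WT and 4.45 ± 5.62 in the mutant, where 1 culture stood at 10.9 CPM and the other 2 at 1.04 and 1.39 CPM.

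The list of transforming growth factor beta (TGF-beta) genes, a pathway known to induce *Lox* and collagen in many cells, had 9 of 11 genes lower and a median of -0.33. DESeq2 called the ligands *Tgfb2* (35.6 ± 3.64 CPM in WT, 25.4 ± 4.09 in the mutant, log2 fold change -0.48, adjusted p = 0.00627) and *Tgfb3* (156.8 ± 18.3 and 124.9 ± 10.2 CPM, -0.33, adjusted p = 0.0278) lower. It also called *Acta2*, smooth muscle actin, lower (969.2 ± 182.6 and 723.9 ± 48.7 CPM, -0.42, adjusted p = 0.0172) and *Tgfbi*, a matrix protein induced by TGF-beta, higher (160.1 ± 6.62 and 195.6 ± 20.1 CPM, 0.29, adjusted p = 0.021). edgeR called none of the 11, with 7 lower and 1 higher at an unadjusted p below 0.05. Without WT replicate 2 the median was -0.18, and *Tgfb3* was no longer called.

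The HIF targets split evenly, with 11 of 22 lower and 11 higher and a median of -0.004. DESeq2 called 1, *Vegfa*, the angiogenic growth factor, which held 199.2, 247.3 and 193.9 CPM in WT and 171.1, 171.6 and 126.7 CPM in the mutant (log2 fold change -0.45, adjusted p = 0.0194 in DESeq2, 0.273 in edgeR). edgeR called none, with 4 lower and 2 higher at an unadjusted p below 0.05. Without WT replicate 2 the median turned to 0.02 and *Vegfa* was not called.

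**Figure D4:**
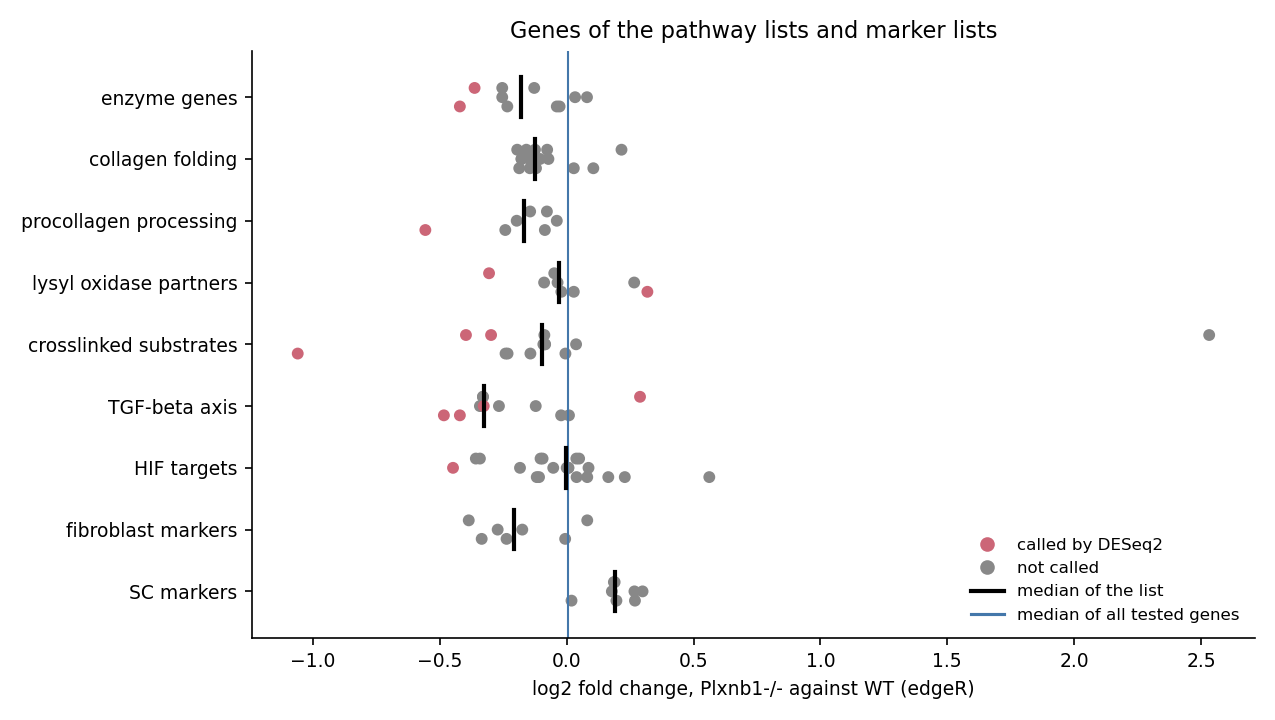
Points give the log2 fold change of *Plxnb1-/-* against WT in edgeR for the genes of each list with a mean of at least 1 CPM, red where DESeq2 called the gene; black bars mark the median of each list's tested genes and the blue line that of all tested genes. The TGF-beta list has the lowest median at -0.33, the HIF targets lie around 0, and the SC markers lie above 0.

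Cell type markers differed between the cultures as well. The 8 SC markers summed to 2617, 2254 and 2672 CPM in WT and 2721, 3008 and 3074 CPM in the mutant, without overlap. All 8 had a positive log2 fold change (median 0.19). At an unadjusted p below 0.05 in edgeR 7 of the 8 were higher, beside 6.95% of all tested genes. Higher values without overlap were found for 4 of the 8, beside 9.3%. The 10 fibroblast markers, led by *Thy1*, summed to 948.3, 1316 and 1063 CPM in WT and 969.1, 944.6 and 930.8 CPM in the mutant, with overlap. *Thy1* itself held 429.4, 651.6 and 489.9 CPM in WT and 409.7, 408.7 and 383.7 CPM in the mutant, below WT in every culture, although cells with Thy1 had been depleted.

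WT replicate 2, the highest culture for most of the enzyme genes, also had the highest fibroblast sum, at 118.7% of the WT mean, and the lowest SC sum, at 89.7%. Its *Lox* and *Loxl2* values were 121.9% and 117.0% of the WT mean. Outside that culture the fibroblast sum was 85.5% and 95.8% of the WT mean in WT and 83.9% to 87.4% in the mutant. The SC sum was 104.1% and 106.3% in these WT cultures and 108.2% to 122.2% in the mutant. *Lox* was 87.8% and 90.2% in these WT cultures and 67.8% to 82.4% in the mutant. Without WT replicate 2 the median log2 fold change was -0.09 over the fibroblast markers and 0.15 over the SC markers, compared with -0.21 and 0.19 in all 6 libraries. In bulk RNA fewer cells of a type and less RNA per cell cannot be told apart, and the part of cell composition in the values of the enzyme genes was not tested.

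Among the fibroblast markers *Dcn* stood at 281.4 ± 43.8 CPM in WT and 280.2 ± 7.98 in the mutant, while *Scara5*, *Pi16* and *Dpt* were each below 1 CPM on average in both genotypes. The mural markers, led by *Pdgfrb*, summed to 684.6 to 839.0 CPM in WT and 707.9 to 719.8 CPM in the mutant. Endothelial markers, led by *Cdh5*, summed to 57.1 to 76.2 CPM and 60.3 to 66.3 CPM, and macrophage markers, led by *Csf1r*, to 23.1 to 25.3 CPM and 26.6 to 29.3 CPM. The neuronal sum, led by *Tubb3*, was 139.9 to 154.4 CPM in WT and 156.1 to 172.5 CPM in the mutant. The mural, endothelial and neuronal sums mostly reflect their leading gene. *Pdgfrb* alone held 642.8 ± 82.0 CPM in WT and 587.8 ± 14.2 in the mutant. *Cdh5* held 59.9 ± 8.17 and 57.65 ± 2.62 CPM, and *Tubb3* 137.5 ± 8.75 and 149.0 ± 5.14 CPM. Of the 5 mural markers 1, *Pdgfrb*, had a negative log2 fold change and 4 a positive one. All 5 macrophage markers and all 5 neuronal markers had a positive one, with medians of 0.25 and 0.37, so a rise was not particular to the SC markers. Of the fibroblast markers 8 were lower and 2 higher, and of the endothelial markers 3 were lower and 1 higher. Of the 37 marker genes edgeR and DESeq2 called 0. At an unadjusted p below 0.05 in edgeR 3 were lower and 11 higher, beside 6.78% and 6.95% of all tested genes.

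**Figure D5:**
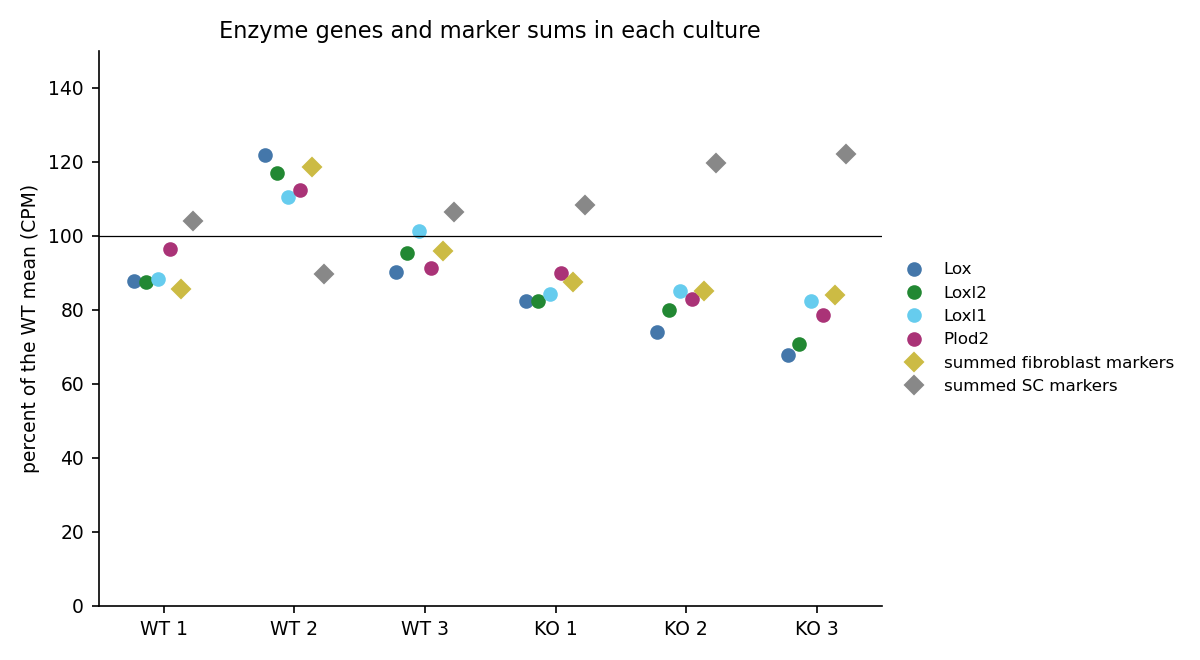
For each culture (KO is *Plxnb1-/-*) circles give *Lox*, *Loxl2*, *Loxl1* and *Plod2*, and diamonds the summed fibroblast and SC markers, as percent of the WT mean in CPM on an axis from 0. In WT replicate 2 the circles and the fibroblast sum lie between 110.6% and 121.9% and the SC sum at 89.7%, and in the mutant cultures the circles lie at or below 90.0%.

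Some reads cannot be assigned to 1 gene with certainty. *Loxl3* shares 535 exon bases with *Htra2* and *Plod3* shares 529 with *Znhit1*, both on the opposite strand, and *Plod2* and *Loxl2* share 346 and 301 with unstudied transcripts on the opposite strand. *Lox* shares 30 bases with an antisense transcript. The library kit keeps the strand, but the strand setting of the counting is not given in the sources used here, so reads in these stretches could belong to either gene.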

How the data were processed

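Bulk RNA-seq libraries of cultured SCs, 3 WT and 3 *Plxnb1-/-*, were grouped by the genotype in the labels. The authors trimmed reads with Trim Galore 0.6.5, aligned them to mm10 with Bowtie2 2.4.1, which does not span introns, removed duplicates with SAMtools 1.10 and deposited raw counts on exons from featureCounts. Total counts were 59252048 to 77280964 per library, and 3 counts equal 0.0388 to 0.0506 CPM. The authors also deposited FPKM values, whose length matched the whole gene span (within 1%) for 99.46% of 14948 genes and the merged exons for 9.52%. They served only as an alternative.

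Of 55401 listed genes 55141 matched GENCODE vM21 by identifier without its version. A gene was tested when 5 or more libraries held 2 counts or more (22318 genes). The main test was edgeR 4.0.16 (TMM, quasi-likelihood, genotype as the only term, R 4.3.3), with Benjamini-Hochberg adjustment over all tested genes and a call needed an adjusted p under 0.05 and a log2 fold change over 0.25 in size. DESeq2 1.42.0, which the study used, and limma 3.58.1 were alternatives. CPM were TMM-scaled, and RPKM divided them by merged exon length. On simulated counts of this comparison (21750 genes) edgeR recovered 99 of 100 genes set 1 log2 unit apart and 80 of 100 set 0.5 apart, with 16 false calls. DESeq2 recovered 100 and 92, with 39 false calls. The changed genes were drawn from those with high counts, genes varied independently, and no simulated culture stood apart as WT replicate 2 does. These rates therefore check the code and do not give the power in the real cultures.

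The gene lists and marker lists, like the members, were chosen with earlier results of these data known. The genes named are the 10 enzymes and *Plxnb1*, the genes of each pathway list that edgeR or DESeq2 called or else the 2 highest and 2 lowest at a mean of at least 1 CPM, and the most abundant gene of each marker list, of which 1 is not reported here. *P4hb*, *P4ha3*, *Bmp1*, *Tll2*, *Col2a1*, *Dcn*, *Sox10*, *S100b*, *Scara5*, *Pi16* and *Dpt* were added after their values were seen. Deviations of same-numbered cultures of the 2 genotypes correlated at -0.02, 0.01 and 0.07, so no pairing by replicate number was seen. Correlations of this kind cannot exclude that same-numbered cultures shared a preparation, and the labels do not say.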

Additional observations from a re-analysis of the deposited data

How the results depend on the processing

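edgeR called 8 genes in all and 0 of the 10 enzyme genes. The count of all genes was 335 with DESeq2, 296 with no filter on low counts, 5 with a filter of 1 CPM in 3 samples, and 3 with limma on log2(FPKM + 0.1) and on log2(FPKM + 1). It ranged from 4 to 25 with 1 library left out. A replicate block (a term for the replicate number) gave 5 genes in all and changed the call of none of the 10. The labels do not say whether the numbers pair the samples. With no filter edgeR called *Lox* and *Loxl2* (adjusted p = 0.04 and 0.0395), 2 of the 10, the same number as DESeq2. DESeq2 without 1 library, chosen after seeing the data, called 946 genes without WT replicate 1, 162 without WT replicate 2, 219 without WT replicate 3, and 281, 124 and 51 without *Plxnb1-/-* replicates 1, 2 and 3. Of the 10 it called 3, 0, 1, 2, 0 and 0 in these fits. The number of the 10 that were lower without overlap, 4 in all libraries, ranged from 4 to 6 with a library left out (6 without WT replicate 1 or *Plxnb1-/-* replicate 1) and was 3 by total-count CPM and by the deposited FPKM. The number higher without overlap ranged from 0 to 1. Groups separate more easily with fewer cultures, so counts with a library left out cannot be set against those in all libraries. The share over all tested genes was not computed for these settings. The cause of the differences between settings was not tested.

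*Plxnb1* had a negative log2 fold change in all fits, but its adjusted p was above 0.05 with voom (-2.04), limma on log2(FPKM + 0.1) (-1.86) and log2(FPKM + 1) (-1.145), the 1 CPM filter (-2.08) and robust dispersion in edgeR (-2.08). With 1 library left out it ranged from -2.30 to -1.74, and edgeR called it in 2 of these 6 fits and DESeq2 in all 6. The sign of *Loxl3* turned only without WT replicate 2, to 0.04 (0.044 in edgeR, 0.040 in DESeq2), within its edgeR range of -0.094 to 0.044, and the median of the HIF targets turned there to 0.021. The other 9 enzyme genes kept their sign in every alternative run. Depth did not limit the enzyme genes, which all stood far above 3 counts.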
